A study of Mus musculus with 2 samples.

Results

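The genes described here are 35 genes of galactose, uridine and UDP-sugar metabolism, out of 52636 Ensembl genes counted in the livers of wild-type and Gbp5-deficient mice. They were taken as a fixed list of gene symbols, matched to Ensembl identifiers through the GRCm38 gene annotation. The list is defined by gene function, not by a threshold on measured values. The list covers the route from galactose to UDP-sugars, the synthesis, salvage and breakdown of pyrimidines, the transport of nucleosides and UDP-sugars, and the making of amino sugars and sialic acid. All 35 were measured, which means a level of at least 1 CPM (counts per 1000000 reads assigned to genes) in either library. Of all genes, 14055 passed that filter.

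Both groups were C57BL/6 mice aged 9 weeks, given D-galactosamine at 800 µg and lipopolysaccharide at 100 ng per g of body weight, and both were studied at 6 h. One group was wild type (WT) and the other carried the genotype GBP5-/- (KO). RNA from 4 livers of each genotype was combined into 1 library, so there was 1 library per genotype and no spread between animals could be measured. No untreated library was analysed here, and the sources used here do not say how the Gbp5 allele was made.

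D-galactosamine is an amino sugar that hepatocytes take up and handle as if it were galactose. Galactokinase phosphorylates it and the uridylyltransferase of the same pathway then joins it to uridine, so that uridine nucleotides are held in UDP-amino sugars and the pools of UTP and UDP-glucose shrink. Hepatocytes in this state are highly sensitive to the cytokines that lipopolysaccharide induces in liver macrophages, and supplied uridine is known to protect them. Gbp5 encodes a guanylate-binding protein, an interferon-induced GTPase of innate immunity.

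Reads assigned to genes numbered 19864848 for WT and 15750875 for KO, a depth 1.26 times as high for WT. A gene without reads could have had up to 3 at these depths, which is 0.151 CPM in WT and 0.190 CPM in KO. Gbp5 itself had 3211 reads in WT and 873 in KO, which was 2.92-fold lower in CPM (95% interval 2.71 to 3.15), and reads of the gene therefore remained in the library labelled KO. Hepatocyte markers made up 62481 CPM in WT and 99448 CPM in KO, led by Alb (albumin, 38384 and 69250 CPM), so both libraries carried the labelled tissue. All 10 Kupffer cell and macrophage markers were lower in KO, beside 54.1% of all measured genes, with summed levels of 1479 and 601 CPM. In RNA from whole liver, fewer cells of a type and less RNA per cell cannot be told apart. Ratios are KO over WT of CPM, with exact 95% intervals that cover counting error only, because reads are not independent molecules and 1 pooled library per genotype gives no replicate check. The ratios compare these libraries, not the genotypes.

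The 35 genes held nearly the same part of both libraries, 43484 reads or 0.219% in WT and 36245 reads or 0.230% in KO. Their summed level was 2189 CPM in WT and 2301 CPM in KO. Within that sum the genes differed in both directions, with 18 above and 17 below a ratio of 1 and a median log2 ratio of 0.00, beside -0.06 over all measured genes. None was at least 2-fold higher in KO, against 4.63% of all measured genes. Tymp, Slc28a2 and Nme2 were at least 2-fold lower, which is 3 of 35, against 12.4% of all measured genes. At 1.5-fold, Ugp2, Gnpnat1, Upp2 and Umps were higher (12.5% of all genes) and Tymp, Slc28a2, Nme2, Cant1 and Upp1 were lower (24.9% of all genes). Counting intervals lay above 1 for 13 of the 35 (26.7% of all genes), below 1 for 11 (36.5% of all genes), and held 1 for the other 11. The shares of the 35 in each class were thus at or below those of all measured genes, except for the share with intervals above 1. The 35 genes had more reads, a median of 1094 over both libraries beside 474 for all measured genes, and intervals narrow with the number of reads.

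**Figure D1:**
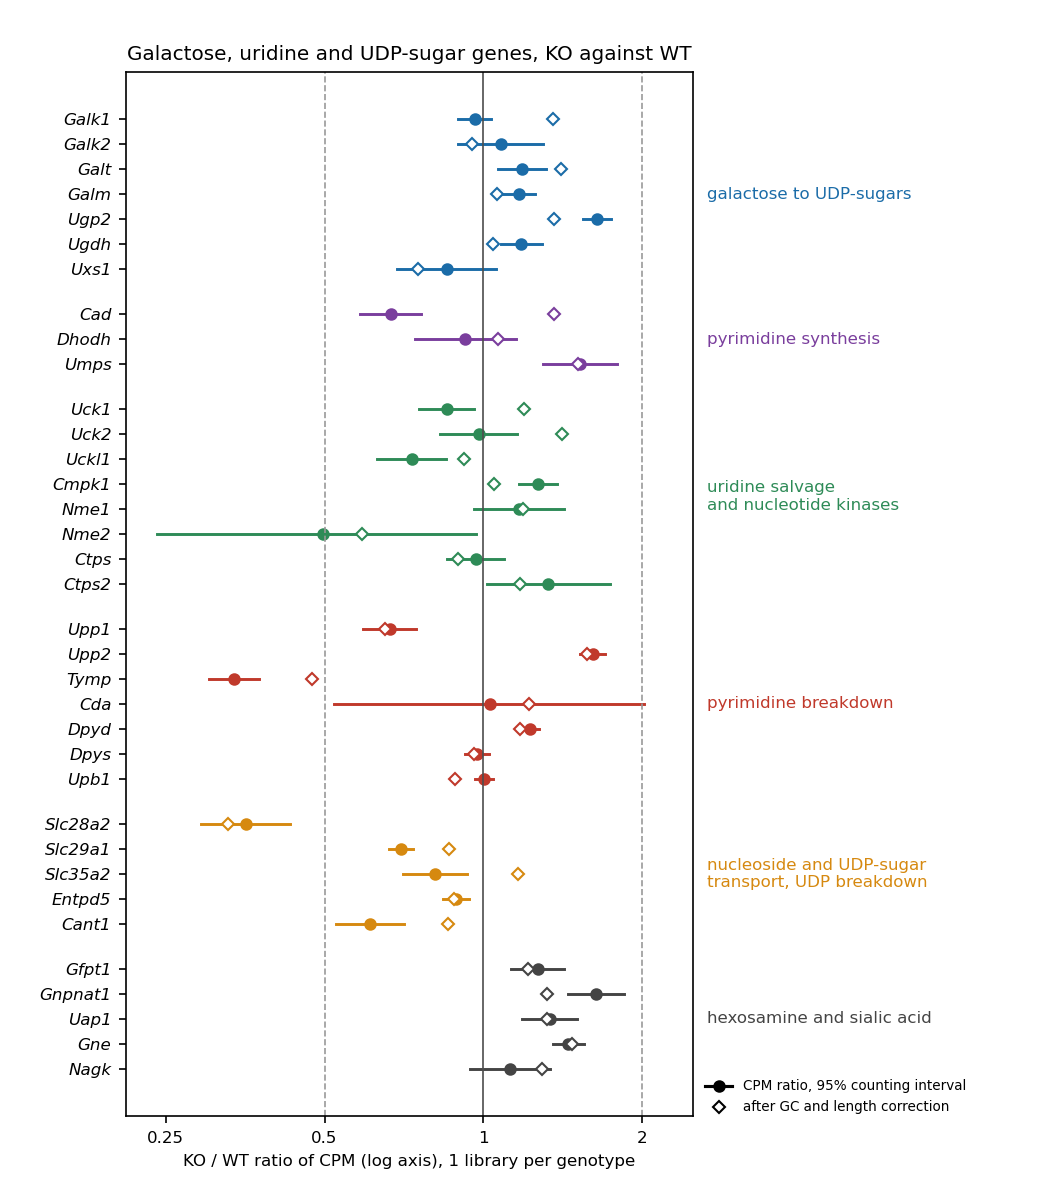
Ratio of CPM, KO over WT, of the 35 genes on a log axis, grouped by role, with filled points for 1 library per genotype, bars for exact 95% counting intervals, open diamonds for ratios after the correction for GC content and length, and dashed lines at 2-fold. Tymp (0.337) and Slc28a2 (0.354) lie lowest and Ugp2 (1.65) and Gnpnat1 (1.63) highest, and the filled points of the 5 genes of transport and UDP breakdown all lie below 1 while those of the 5 of hexosamine and sialic acid all lie above it.

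GC content went with the difference between the libraries over all genes, and it bears on several values below. Over 10 bins of GC content the median log2 ratio ran from 0.28 in the lowest bin to -0.86 in the highest. For the 35 genes and the other pathway genes named, a corrected log2 ratio is therefore given beside the plain one where it differs in sign or by more than 1.5 times. It is the gene's log2 ratio less the median of genes of like GC content and exon length, so real differences that follow those properties are taken away with it. After this correction 0 of the 35 were at least 2-fold higher (5.17% of all genes) and 2 at least 2-fold lower (6.77% of all genes), namely Tymp at -1.08 and Slc28a2 at -1.61. The corrected median of the 35 was 0.22, with 22 above and 13 below 0, beside 0.00 for all genes. With GC content alone, and no length bins, the median of the 35 was 0.07, beside 0.01 for all genes.

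The start regions of 4 genes are shown because Tymp and Slc28a2 differed most and because Cad and Umps, which catalyse the first and last steps of one pathway, lay on opposite sides of 1. Each is the 250 bases before the single start that RefSeq lists for the gene (GRCm38.p6), written 5′ to 3′ on the gene's own strand and ending at the base before the start. Capitals mark every match, on either strand, to the motifs TATAAA (a core promoter element), CCAAT (a site of the factor NF-Y), GGGCGG (a site of Sp-type factors), CACGTG (a site of Myc-type factors), TTCNNNGAA (a site of STAT factors), GAAANNGAA (a site of interferon-regulated factors) and GGGNNTTCC (a site of NF-kappaB). Their places are chr15:89377037-89377286 on the minus strand for Tymp, chr2:122426185-122426434 on the plus strand for Slc28a2, chr5:31054530-31054779 on the plus strand for Cad and chr16:33967039-33967288 on the minus strand for Umps.
Tymp: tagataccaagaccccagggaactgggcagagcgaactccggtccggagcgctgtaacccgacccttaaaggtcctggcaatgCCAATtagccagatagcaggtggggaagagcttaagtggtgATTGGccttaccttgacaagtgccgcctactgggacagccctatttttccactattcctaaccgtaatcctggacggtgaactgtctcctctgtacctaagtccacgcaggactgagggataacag
Slc28a2: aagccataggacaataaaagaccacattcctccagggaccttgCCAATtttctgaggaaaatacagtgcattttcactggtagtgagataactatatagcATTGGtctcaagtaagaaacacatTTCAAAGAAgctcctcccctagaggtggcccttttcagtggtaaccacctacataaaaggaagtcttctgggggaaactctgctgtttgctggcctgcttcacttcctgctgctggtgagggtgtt
Cad: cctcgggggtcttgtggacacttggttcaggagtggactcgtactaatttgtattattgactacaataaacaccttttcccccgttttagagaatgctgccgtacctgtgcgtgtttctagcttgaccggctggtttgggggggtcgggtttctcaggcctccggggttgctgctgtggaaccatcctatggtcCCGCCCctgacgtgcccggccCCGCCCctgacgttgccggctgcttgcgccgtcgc
Umps: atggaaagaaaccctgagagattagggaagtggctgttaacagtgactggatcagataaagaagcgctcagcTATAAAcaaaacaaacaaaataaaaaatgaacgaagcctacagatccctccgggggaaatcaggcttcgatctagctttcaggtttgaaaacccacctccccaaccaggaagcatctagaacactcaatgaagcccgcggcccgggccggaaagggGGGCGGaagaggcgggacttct
The Tymp window held CCAAT at -167 and -126 from the start, and the Slc28a2 window held it at -207 and -150 with TTCNNNGAA at -126. Both windows are from the genes with the lowest ratios, and CCAAT is also present in 33.8% of all 32851 windows of this length and TTCNNNGAA in 7.02%. The Cad window held GGGCGG at -56 and -35, and the Umps window held GGGCGG at -22 and TATAAA at -178, motifs found in 32.7% and 12.4% of all windows. No match to CACGTG (6.02% of all windows), GAAANNGAA (7.13%) or GGGNNTTCC (4.98%) was found in the 4 windows. Over the 51 windows listed for 30 of the 35 genes, GGGCGG was present in 26 (51.0%, beside 32.7% of all windows). CCAAT was present in 10 (19.6%, beside 33.8%). CACGTG was present in 5, TATAAA and GAAANNGAA in 2 each, and TTCNNNGAA and GGGNNTTCC in 1 each. The median GC content was 60.4%, beside 52.4% over all windows. These are matches of letters and say nothing about binding.

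Galactose is phosphorylated, exchanged onto UDP-glucose and so turned into UDP-sugars, and this is also the route that D-galactosamine enters. The 7 genes of this route summed to 376 CPM in WT and 461 CPM in KO, and 5 of them were higher in KO, beside 45.9% of all measured genes. Galk1, galactokinase, had 1750 reads (88.1 CPM) in WT and 1336 (84.8 CPM) in KO, a ratio of 0.963 (0.896 to 1.03) that did not stand apart from 1. Its corrected log2 ratio was 0.44, because genes of its GC content (61.4%) and length had a median log2 ratio of -0.49, and its plain value of -0.05 turned to 0.05 when the 50 most abundant genes were left out of the totals. Galt, the uridylyltransferase that makes UDP-galactose, was at 36.7 CPM in WT and 43.5 CPM in KO, a ratio of 1.19 (1.07 to 1.32), with a corrected log2 ratio of 0.49 beside the plain 0.24. Correction for GC content alone gave larger log2 ratios, 0.80 for Galk1 and 0.77 for Galt, so the size of the difference for both enzymes that act on D-galactosamine depended on the correction.

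Ugp2, the pyrophosphorylase that makes UDP-glucose from UTP (ENSMUSG00000001891, chromosome 11, 21321138 to 21371201, minus strand), differed most in this group. It had 1795 reads (90.4 CPM) in WT and 2342 (149 CPM) in KO, a ratio of 1.65 (1.55 to 1.75), the highest of the 35. Its GC content of 39.1% was among the lowest, and its corrected log2 ratio was 0.44 beside the plain 0.72. Galm, the mutarotase that prepares galactose for phosphorylation, was at 85.4 and 99.8 CPM, a ratio of 1.17 (1.09 to 1.25) with a corrected log2 ratio of 0.09 beside 0.23. Ugdh, which oxidises UDP-glucose to UDP-glucuronate, was at 52.4 and 61.8 CPM, a ratio of 1.18 (1.08 to 1.29), and its corrected log2 value of 0.06 was near 0. The low members of the group had intervals that held 1. Galk2, a kinase of N-acetylgalactosamine, was at 12.6 and 13.6 CPM (1.08, 0.895 to 1.30, corrected log2 ratio -0.07), and Uxs1, which makes UDP-xylose, was at 10.7 and 9.14 CPM (0.853, 0.685 to 1.06, corrected log2 ratio -0.41).

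New pyrimidines are made from aspartate, glutamine and bicarbonate, and the 3 genes of that route did not move as one. Cad, the large enzyme of the first steps (ENSMUSG00000013629, chromosome 5, 31054780 to 31078479, plus strand), had 641 reads (32.3 CPM) in WT and 339 (21.5 CPM) in KO, a ratio of 0.667 (0.583 to 0.762). Umps, which makes UMP in the last step (ENSMUSG00000022814, chromosome 16, 33954782 to 33967038, minus strand), had 281 reads (14.1 CPM) in WT and 340 (21.6 CPM) in KO, a ratio of 1.53 (1.30 to 1.79). Cad thus supplied 69.5% of the reads of this pair in WT (95% exact interval 66.4 to 72.5) and 49.9% in KO (46.1 to 53.8). The value of Cad depended on the correction while that of Umps did not. With GC content and length Cad was at 0.45 and Umps at 0.59, and with GC content alone they were at -0.06 and 0.60. Long genes with the GC content of Cad (57.4%) had a median log2 ratio of -1.03 in these libraries. Dhodh, the mitochondrial dehydrogenase between them, was at 10.02 and 9.27 CPM with a ratio of 0.925 (0.742 to 1.15), and its corrected log2 ratio was 0.09.

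Salvage returns uridine and cytidine to nucleotides, and kinases then raise them to the diphosphate and triphosphate. The 8 genes of this group summed to 178 CPM in WT and 183 CPM in KO. Of them 3 were higher and 5 lower in KO, beside 45.9% and 54.1% of all measured genes. The uridine-cytidine kinases, which catalyse the first salvage step, were each below 1 in total CPM, Uck2 turning to a log2 ratio of 0.07 when the 50 most abundant genes were left out of the totals. Uck1 had 672 reads (33.8 CPM) in WT and 454 (28.8 CPM) in KO, a ratio of 0.852 (0.755 to 0.961), but its corrected log2 ratio was 0.26. Uck2 was level at 16.3 and 16.0 CPM (0.981, 0.829 to 1.16), with a corrected log2 ratio of 0.50. Uckl1, a kinase-like relative, was at 23.6 and 17.3 CPM, a ratio of 0.731 (0.628 to 0.851), with a corrected log2 ratio of -0.12 beside the plain -0.45. Once GC content and length were taken into account, then, 2 of these 3 lay above 0.

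Among the later kinases, Cmpk1, which phosphorylates UMP and CMP, had 1129 reads (56.8 CPM) in WT and 1136 (72.1 CPM) in KO, a ratio of 1.27 (1.17 to 1.38), and a corrected log2 ratio of 0.07. Nme1 and Nme2 are nucleoside diphosphate kinases that make UTP from UDP. Nme1 was at 11.1 and 12.95 CPM, a ratio of 1.17 (0.962 to 1.42). Nme2 had 33 reads (1.66 CPM) in WT and 13 (0.825 CPM) in KO, 2.01-fold lower with an interval from 1.03 to 4.17, so that its place past 2-fold rests on few reads. With TMM factors (a trimmed-mean scaling) its log2 ratio was -0.98, short of 2-fold, and its corrected value was -0.77. Counts of this pair are uncertain, since 573 exon bases of Nme2 (48.9%) and 418 of Nme1 (12.5%) also belong to Gm20390, a joint gene model listed at 0 reads in both libraries. The CTP synthases use UTP as substrate. Ctps, the more abundant of them in reads, was at 28.7 and 27.7 CPM (0.967, 0.852 to 1.10, corrected log2 ratio -0.16), and Ctps2 had 111 reads in WT and 117 in KO (1.33, 1.02 to 1.74, corrected log2 ratio 0.23).

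Breakdown begins when phosphorylases split uridine and thymidine into base and sugar, and the 3 phosphorylases included the lowest and one of the highest ratios of the 35 genes. Tymp, thymidine phosphorylase (ENSMUSG00000022615, chromosome 15, 89371931 to 89377039, minus strand), had 1596 reads (80.3 CPM) in WT and 426 (27.05 CPM) in KO. It was 2.97-fold lower in KO (2.67 to 3.31), the lowest ratio of the 35 genes. With genes of its GC content (61.2%) and length as reference, its log2 ratio was -1.08 in place of -1.57, and with GC content alone it was -0.71, short of 2-fold. Of its exon bases, 856 are shared with Sco2 on the same strand, which is listed at 0 reads in both libraries, and 535 with Ncaph2 on the opposite strand, which had 1053 reads in WT and 792 in KO. The sources used here do not say how reads in such shared bases were counted. The macrophage markers were 0.407 times as high in KO and all 10 lower, beside 54.1% of all measured genes. Their part in the value of Tymp was not tested.

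Upp1 and Upp2 are the uridine phosphorylases, Upp2 being the form known from liver. Upp1 (ENSMUSG00000020407, chromosome 11, 9118103 to 9136170, plus strand) had 873 reads (43.9 CPM) in WT and 460 (29.2 CPM) in KO, a ratio of 0.664 (0.592 to 0.745). Upp2 (ENSMUSG00000026839, chromosome 2, 58567298 to 58792971, plus strand) had 2354 reads (119 CPM) in WT and 3010 (191 CPM) in KO, a ratio of 1.61 (1.53 to 1.70). The 2 forms thus lay on opposite sides of 1, and their corrected log2 ratios of -0.62 and 0.65 were close to the plain ones of -0.59 and 0.69. Upp1 supplied 27.1% of the reads of the pair in WT (25.5 to 28.6) and 13.3% in KO (12.1 to 14.4). Per length, Upp1 was the higher form in WT, at 22.4 FPKM (CPM per kb of exon) beside 15.3 for Upp2. In KO the order was the other way, 14.9 FPKM for Upp1 and 24.6 for Upp2. Both orders depend on lengths taken over all annotated exons, 1961 bases for Upp1 and 7761 for Upp2. In reads Upp2 was the larger form in both libraries. Which transcripts were present was not tested.

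The later steps of breakdown, which reduce and open the pyrimidine ring, were among the highest genes in reads and differed little. Dpyd, the dehydrogenase that starts uracil breakdown and limits its rate, had 5598 reads (282 CPM) in WT and 5447 (346 CPM) in KO, a ratio of 1.23 (1.18 to 1.27). Dpys, the dihydropyrimidinase of the next step, was at 162 and 157 CPM (0.972, 0.922 to 1.02, corrected log2 ratio -0.06). Upb1, the beta-ureidopropionase of the last step, was at 275 and 276 CPM (1.003, 0.963 to 1.04), with a corrected log2 ratio of -0.18 and a plain one of -0.06 with equal FPKM sums. The intervals of Dpys and Upb1 are narrow since each rests on 2477 reads or more in either library. Cda, cytidine deaminase, had 22 reads in WT and 18 in KO, and its interval of 0.522 to 2.02 leaves any difference up to 1.92-fold lower or 2.02-fold higher undetectable at this depth. Its log2 ratio of 0.05 was 0.29 after the correction and -0.01 with equal FPKM sums.

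Nucleosides cross the plasma membrane through concentrative and equilibrative carriers, and in the Golgi and endoplasmic reticulum the UDP that glycosyltransferases release is hydrolysed by nucleotidases. The 5 genes of this group were all lower in KO, beside 54.1% of all measured genes, and all 5 intervals lay below 1, beside 36.5% of all genes, with a summed level of 438 CPM in WT and 327 CPM in KO, and a median log2 ratio of -0.52. All 5 stayed below 0 under each library scaling tried. After the correction the median was -0.22 and Slc35a2 lay above 0. Slc28a2, the sodium-coupled nucleoside carrier that takes up purine nucleosides and uridine (ENSMUSG00000027219, chromosome 2, 122426477 to 122461137, plus strand), had 484 reads (24.4 CPM) in WT and 136 (8.63 CPM) in KO. It was 2.82-fold lower in KO (2.33 to 3.44), and its corrected log2 ratio of -1.61 was the lowest of the 35.

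Slc29a1, the equilibrative nucleoside carrier of hepatocytes and many other cells, had 4036 reads (203 CPM) in WT and 2231 (142 CPM) in KO, a ratio of 0.697 (0.662 to 0.734). Its corrected log2 ratio was -0.22 beside the plain -0.52. Slc28a2 supplied 10.7% of the reads of these 2 carriers in WT (9.82 to 11.6) and 5.75% in KO (4.84 to 6.76), so the smaller carrier was lower by more than the larger one. Cant1, a calcium-dependent nucleotidase that hydrolyses UDP, was at 28.4 and 17.3 CPM, 1.64-fold lower (1.42 to 1.90), with a corrected log2 ratio of -0.22 beside -0.71. Entpd5, the UDP-hydrolysing enzyme of the endoplasmic reticulum, was at 156 and 139 CPM (0.888, 0.841 to 0.938). Slc35a2, which carries UDP-galactose into the Golgi, was at 25.8 and 20.95 CPM (0.811, 0.704 to 0.933), and its corrected log2 ratio was 0.22.

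The hexosamine route turns fructose phosphate and UTP into UDP-N-acetylglucosamine, and Gne then starts sialic acid synthesis from it. All 5 genes of this group were higher in KO, beside 45.9% of all measured genes, and 4 had intervals above 1, beside 26.7% of all genes. They had a summed level of 178 CPM in WT and 249 CPM in KO and a median log2 ratio of 0.42. The direction was the same under each library scaling tried and after the correction, where the median was 0.40. Gnpnat1, which acetylates glucosamine phosphate, had 471 reads (23.7 CPM) in WT and 610 (38.7 CPM) in KO, a ratio of 1.63 (1.45 to 1.85), with a corrected log2 ratio of 0.40 beside 0.71. Of its exon bases, 3878 (81.9%) are shared with Styx on the opposite strand, a gene with 33 reads in WT and 19 in KO, and the sources used here do not say whether strand was used in counting.

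Gne, the epimerase and kinase that commits UDP-N-acetylglucosamine to sialic acid, had 1660 reads (83.6 CPM) in WT and 1909 (121 CPM) in KO. Its ratio was 1.45 (1.36 to 1.55), and the correction hardly changed its log2 ratio (0.54 before, 0.56 after). Uap1, the pyrophosphorylase that makes UDP-N-acetylglucosamine, was at 26.7 and 35.7 CPM (1.34, 1.19 to 1.51). Gfpt1, the amidotransferase of the first and rate-limiting step, was at 29.4 and 37.3 CPM (1.27, 1.13 to 1.42). Nagk, the kinase that salvages N-acetylglucosamine, was at 14.3 and 16.1 CPM, with an interval that held 1 (1.12, 0.945 to 1.34, corrected log2 ratio 0.37). The forms of the first step differed, since Gfpt2, which is outside the 35 genes and was named after its value was seen, was lower in KO at 24.6 and 15.6 CPM (0.634, 0.542 to 0.741). Its share of the reads of both amidotransferases was 45.5% in WT (42.5 to 48.6) and 29.5% in KO (26.4 to 32.7).

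Levels of the 35 genes were compared with each other per length, in FPKM. Galk1 stood first of the 35 in both libraries, at 62.7 FPKM in WT and 60.3 in KO. In WT it was followed by Slc29a1 at 50.7, Dpys at 43.2, Upb1 at 40.5 and Tymp at 39.4. In KO, Ugp2 came next at 48.4, before Dpys at 42.0, Upb1 at 40.7 and Galm at 40.3, while Slc29a1 stood at 35.3 and Tymp at 13.3. Neighbours such as Dpys and Upb1 differed by little in either library, and without replicates their order could not be tested. The lowest were Cda at 1.07 FPKM in WT and Nme2 at 0.705 FPKM in KO.

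**Figure D2:**
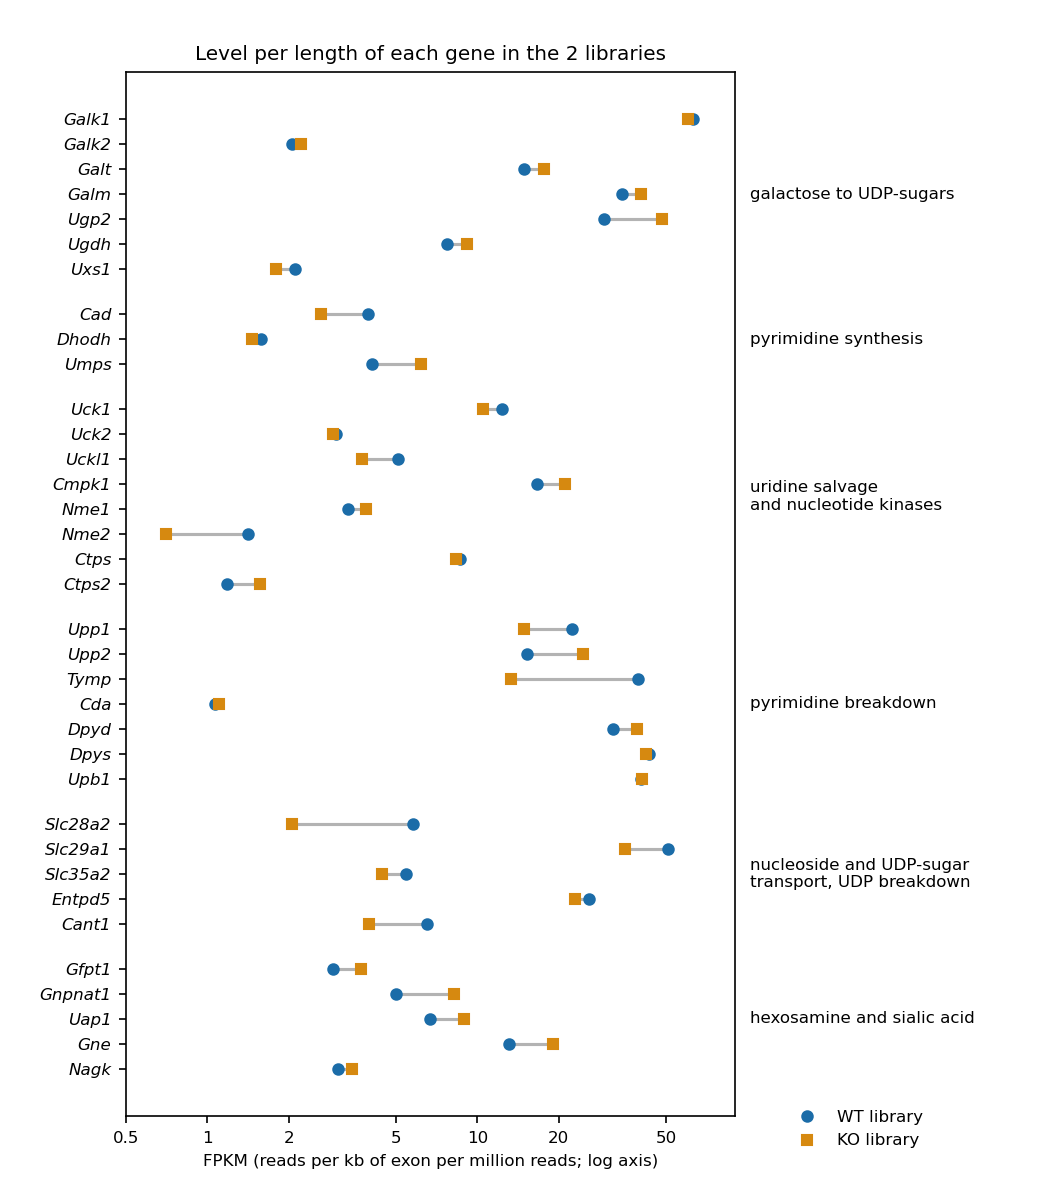
Level per length of the 35 genes in the WT library (circles) and the KO library (squares), in FPKM on a log axis, grouped by role, with 1 library per genotype and so no error bars. Most pairs of points lie close together, and the longest lines belong to Tymp (39.4 to 13.3) and Slc28a2 (5.79 to 2.05).

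GC content, a property the list was not chosen by, went with the ratio among the 35 as it did among all genes. Of the 17 genes below the members' median GC content of 49.4%, 13 had ratios above 1 and the median log2 ratio was 0.30. Of the 18 at or above it, 5 had ratios above 1 and the median was -0.17. Spearman's rho between GC content and log2 ratio was -0.60 over the 35 genes and -0.46 over all measured genes, as a description across genes of the same 2 libraries. After the correction the medians on either side were 0.09 and 0.24. Slc28a2, at a GC content of 46.8%, and Galk1, at 61.4%, lay on opposite sides of this trend, Slc28a2 below genes of like composition and Galk1 above them. With the correction for GC content and length, 8 of the 35 changed sign: Galk1, Cad, Dhodh, Uck1, Uck2 and Slc35a2 to above 0, and Galk2 and Upb1 to below it. With GC content alone 6 did, as Cad and Dhodh then stayed below 0.

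**Figure D3:**
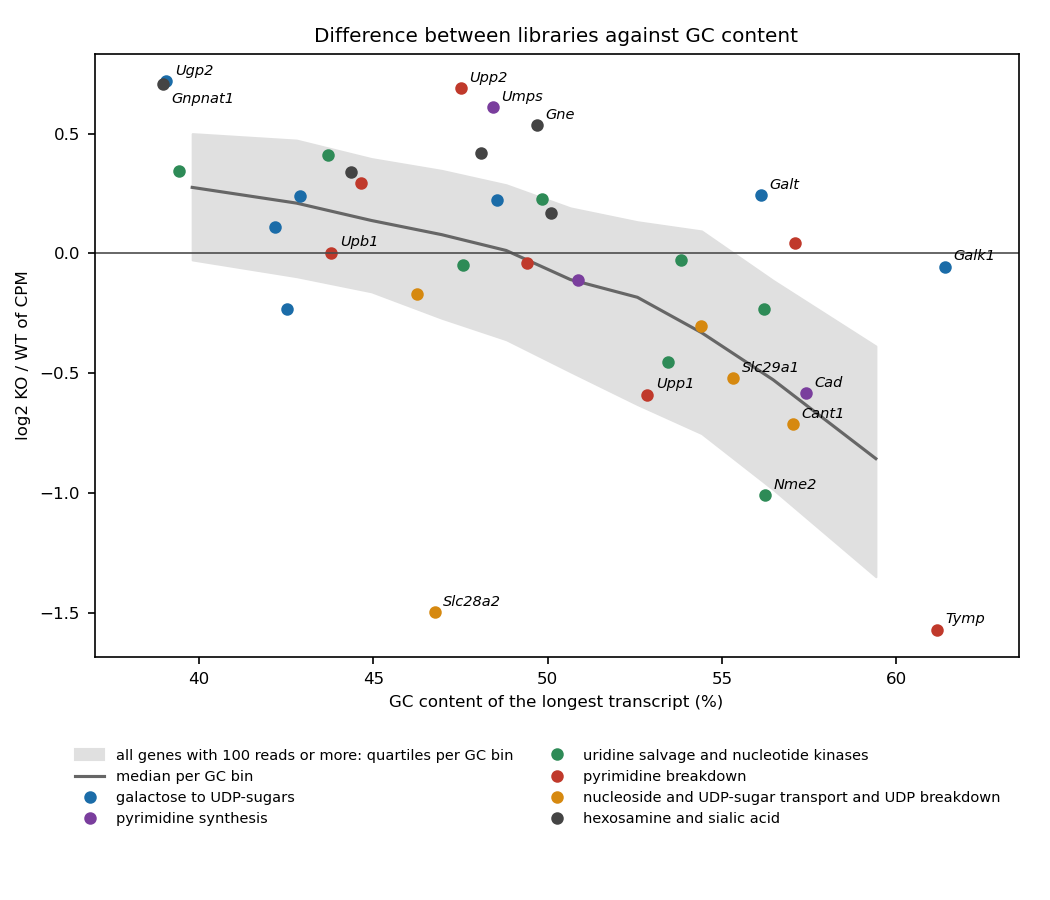
Log2 ratio of CPM, KO over WT, of the 35 genes (coloured by role) against the GC content of the longest transcript in percent. The line joins the medians of genes with at least 100 reads in 10 bins of GC content, from 0.28 in the lowest to -0.86 in the highest, and the band spans the quartiles of each bin.

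The other genes of these pathways, 57 in number and 51 of them measured, were also divided, with 26 above and 25 below a ratio of 1 and a median log2 ratio of 0.01. At least 2-fold differences were found for Gys2 and Rrm2 (higher, against 4.63% of all genes) and for Hk2 and Cmpk2 (lower, against 12.4%). Of the 15 measured genes around galactose and UDP-sugars, 10 were higher in KO, beside 45.9% of all measured genes. The majority of members in that route were higher too. Gys2, the liver glycogen synthase that uses UDP-glucose, was at 57.4 CPM (1140 reads) in WT and 115 CPM (1813 reads) in KO, 2.01-fold higher (1.86 to 2.16) with a corrected log2 ratio of 0.99. The others of that list with the most reads, a measure that is not per length, were the glucose carrier Slc2a2 (122 and 190 CPM, 1.56, 1.48 to 1.65), the phosphoglucomutase Pgm1 (127 and 171 CPM, 1.34, 1.27 to 1.42) and Papss2, which makes the sulfate donor for conjugation (95.2 and 144 CPM, 1.51, 1.42 to 1.61). Entpd4 was listed at 0 reads in both libraries. Of its exon bases, 2110 (26.1%) are shared with Gm16867 on the opposite strand, also listed at 0 reads in both.

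Of the 12 other hexosamine and sialic acid genes measured, 11 were lower in KO, beside 54.1% of all measured genes, with a median log2 ratio of -0.51. After the correction 9 of the 12 were below 0 and the median was -0.31. Hk2, a hexokinase, was at 54.2 CPM (1076 reads) in WT and 22.3 CPM (352 reads) in KO, 2.42-fold lower (2.15 to 2.74, corrected log2 ratio -0.95). Hk1 was at 47.5 and 25.8 CPM (0.543, 0.482 to 0.611), though its corrected log2 ratio was 0.15. Ogt, which attaches N-acetylglucosamine to proteins, was at 94.6 and 91.4 CPM (0.966, 0.901 to 1.04, corrected log2 ratio -0.25). Of the 24 other pyrimidine genes measured, 15 were higher and 9 lower, beside 45.9% and 54.1% of all measured genes. Intervals lay above 1 for 4 (26.7% of all genes) and below 1 for 6 (36.5% of all genes). The summed level of that list was 581 CPM in WT and 501 CPM in KO. Rrm2, a subunit of ribonucleotide reductase, was at 4.98 CPM (99 reads) in WT and 12.4 CPM (195 reads) in KO, 2.48-fold higher (1.94 to 3.20). Cmpk2, a mitochondrial nucleotide kinase known as interferon-induced, had 1110 and 411 reads, 2.14-fold lower (1.91 to 2.40). Samhd1, a dNTP hydrolase, was at 186 and 141 CPM (0.760, 0.721 to 0.801), and Agxt2, an aminotransferase that acts on a product of pyrimidine breakdown, was at 111 and 94.5 CPM (0.854, 0.799 to 0.913). Nme3 was listed at 0 reads in both, and its exons overlap those of Mrps34 and Mapk8ip3.

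Markers of cell types differed between the libraries by as much as the most different of the 35 genes did. For Kupffer cells and macrophages the median log2 ratio was -1.16, and Marco was at 305 CPM in WT and 89.4 in KO. For T and NK cells all 9 measured markers were lower, beside 54.1% of all measured genes (median -0.99, 66.5 and 29.3 CPM in sum). Gzmb held the most reads at 46.9 and 19.2 CPM. Neutrophil markers summed to 410 and 325 CPM, with S100a9 at 134 and 115 CPM (log2 ratio -0.21, corrected -0.47) and Mpo at 3 reads in WT and 0 in KO. Of the 8 measured, 3 were higher and 5 lower in KO, beside 45.9% and 54.1% of all measured genes. Of their intervals, 4 lay below 1 (36.5% of all genes) and 4 held 1. After the correction all 8 were below 0. Csf3r, named after its value was seen, was at 112 and 51.0 CPM. Hepatocyte markers were higher in 9 of 10 cases, beside 45.9% of all measured genes, with a median of 0.38. Endothelial markers summed to 797 and 686 CPM (Cdh5 185 and 110) and stellate cell and fibroblast markers to 1810 and 1584 CPM (Ecm1 913 and 738, its log2 ratio of -0.31 turning to 0.19 after the correction). Both lists were mixed, each with 3 of 10 markers higher in KO and 7 lower, beside 45.9% and 54.1% of all measured genes. Their median log2 ratios were -0.05 and -0.25. For endothelium 3 intervals lay above 1, 3 below it and 4 held it. For stellate cells and fibroblasts 3 lay above 1 and 7 below it. Cholangiocyte markers were higher for 9 of 10, beside 45.9% of all measured genes, with 338 and 483 CPM in sum. Anxa5 held the most reads at 165 and 175 CPM. Intervals lay above 1 for 6 (26.7% of all genes) and below it for 1 (36.5% of all genes), and 3 held it. In that list 4 were at least 2-fold higher, against 4.63% of all measured genes. Named here after their values were seen, they were Muc1 (5.57-fold), Cd24a (4.37-fold), Krt19 (4.24-fold) and Epcam (2.17-fold). Sox9, named likewise, was the 1 marker lower in KO, at 1067 and 600 reads (0.71, 0.64 to 0.78). Of 12 pancreas and gut markers, Cpa1, Pnlip, Muc2 and Cdx2 were at 0 in both libraries, Prss2 and Cel at 1 read in WT and 0 in KO, Ctrb1 at 0 in WT and 297 reads in KO, and Fabp2 had the most reads at 45.2 and 55.9 CPM. Among the 6 measured, KO was past 2-fold higher for 4, against 4.63% of all measured genes. They were Ctrb1 and, named after their values were seen, Spink4 (1 and 98 reads), Tff2 (4 and 62 reads) and Vil1 (25 and 76 reads). Cela1, also named after its value was seen, was lower in KO, at 521 and 328 reads (0.794, 0.689 to 0.913). The part of any cell type in the values of the 35 genes was not tested.

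**Figure D4:**
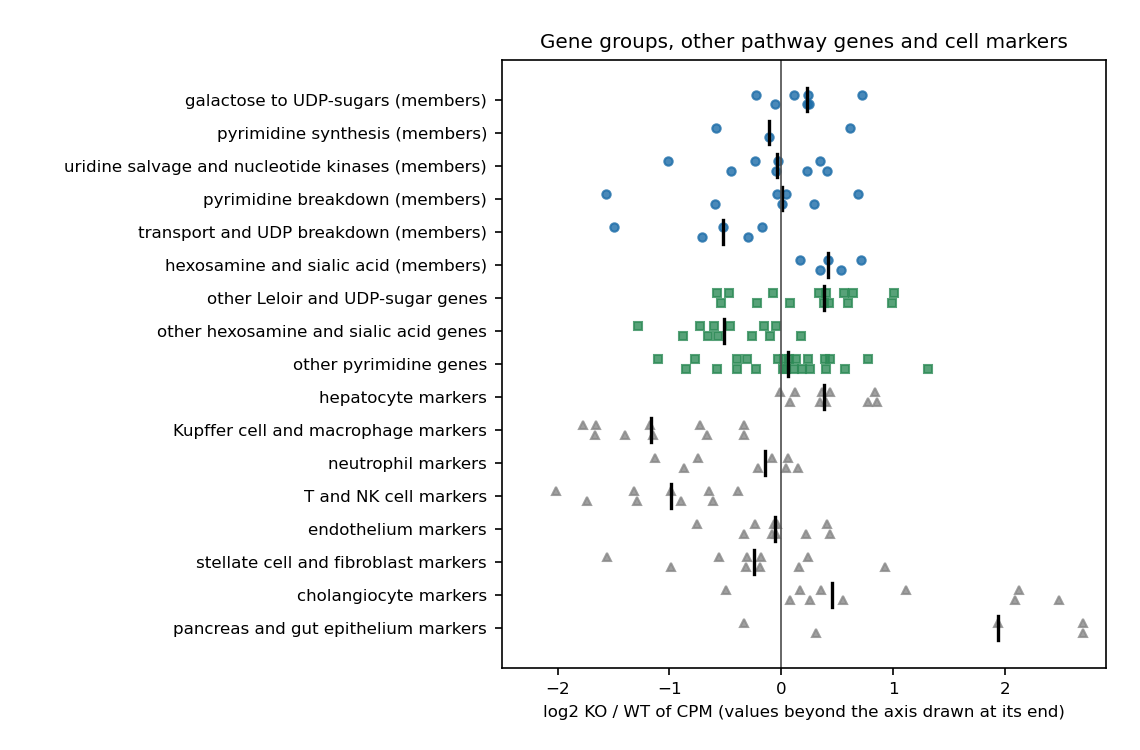
Log2 ratio of CPM, KO over WT, for the 35 genes by role (circles), the other genes of the pathways (squares) and cell type markers (triangles), for genes measured and not at 0 in WT, with a bar at each list's median and values beyond the axis drawn at its end. Macrophage markers (median -1.16) and T and NK cell markers (-0.99) lie below every role group's median, the lowest of which is -0.52 for transport and UDP breakdown.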

How the data were processed

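Liver RNA was counted in 1 WT and 1 KO library, each a pool of 4 livers. TopHat2, HTSeq 0.6.1 and the build GRCm38 are named per the submitters' processing notes. The strand setting, the annotation release and any filters were not given in the sources used here. Values deposited by the authors are called FPKM but are whole-number counts per gene, and were read as raw counts. The 209 entries without an Ensembl gene (0.652% of counts in WT, 0.496% in KO) were left out. CPM, and FPKM over the exon union in GENCODE M21, were computed with Python 3.11.15 and scipy 1.17.1. Of 52636 genes, 233 were not in that annotation and were not compared. The symbol Oga was matched as Mgea5.

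No test across replicates was possible from single libraries. Ratios have exact 95% Clopper-Pearson intervals conditional on the summed reads. The correction used 10 GC by 4 length bins of genes with at least 100 reads, and the calculations were tested on simulated data. edgeR 4.0.16 (R 4.3.3) gave TMM factors only. Alternatives covered scaling, library total, GC content, pseudocount, filter and fold, and 1, leaving out members with shared exons, was chosen after seeing the data. Named were all 35 genes, Gbp5, other pathway genes at least 2-fold different or among the 3 highest of a list, and each marker list's highest gene and those at 0 reads, with exceptions said. The members and lists were chosen with earlier results of these data known.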

Additional observations from a re-analysis of the deposited data

How the results depend on the processing

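None of the 35 genes was at least 2-fold higher under any alternative at that fold, and 1 to 3 were lower: 1 (Slc28a2) with correction for GC content alone, 1 (Slc28a2) without the 5 genes sharing at least 10% of their exon bases with another gene, a setting chosen after seeing the data, and 2 or 3 otherwise. At 1.5-fold, 4 were higher and 5 lower. The median log2 ratio of the 35 was 0.11 with the 50 most abundant genes left out of the totals, which moved the log2 ratio of all genes by 0.10 and turned Galk1, Uck2, Dpys and Ctps above 0, and 0.22 with correction for GC content and length but 0.07 with GC content alone. With equal FPKM sums Upb1 and Cda turned below 0. No member changed sign under median-ratio or TMM scaling or without mitochondrial genes.

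Of all genes, 952 were at least 2-fold lower with correction for GC content and length and 971 with GC content alone, beside 1745 without. Genes at least 2-fold higher, 651 in the reported setting, numbered 295 with 1 CPM added, 289 with 1 FPKM added (785 lower), 2360 with no filter beyond 1 read (2775 lower), 194 at 5 CPM or more, and 1751 at 1.5-fold (3496 lower). Depth limited Nme2 and Cda most among the 35, which had 46 and 40 reads over both libraries. With 1 library per genotype none could be left out. No paired analysis was possible because each group has 1 library. The limits are that single pool, the unstated strand setting, and exons shared with other genes.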
